A study of Mus musculus with 12 samples.

Results

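Untreated CD8+ T cells of a second expansion experiment were compared with those of a first. The members were chosen by their labels: the untreated libraries of experiment 2 (3 mice) and of experiment 1 (3 mice), 6 of the 12 libraries of the series. Splenocytes from mice with a transgenic T cell receptor received their cognate peptide for 24 hours and IL-2 for 6 days. They were sorted for CD8 on day 7, and RNA was measured by bulk sequencing of amplified cDNA. The other 6 libraries come from the same mice, with cells expanded in 5 mM dichloroacetate (DCA). The strain label of experiment 1 is OT-1, with genotype C57BL/6-Tg(TcraTcrb)1100Mjb/J, a receptor for the ovalbumin peptide SIINFEKL, whereas its sample titles name Pmel-1. In experiment 2 the strain label and the titles both name Pmel-1, which is Tg(TcraTcrb)8Rest/J on a B6.Cg-Thy1a/Cy background, a receptor for the melanocyte peptide gp100. The labels give peptide doses by strain, 250 nM SIINFEKL for OT-1 and 1 uM gp100 for pmel-1, and they name 2 technical batches. Strain, peptide, dose and batch therefore cannot be told apart here, and no difference below is assigned to any of them. The age and sex of the mice are not in the labels. Each library stands for 1 mouse, so the spread is between mice of 1 experiment and no experiment was repeated.

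A CD8 T cell that meets its peptide divides, switches to aerobic glycolysis and makes cytotoxic granules holding perforin and granzymes. In IL-2 culture such cells can resemble effector cells, with high granzymes and natural killer receptors, or keep features of central memory cells. Those features include the lymph node homing receptor CCR7 and the transcription factor TCF1, the product of Tcf7.

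The 6 libraries held 29092966 to 41051066 counts each, and the totals of the experiments overlapped. At least 1 count was found for 18382 to 19551 genes per library in experiment 1 and for 24831 to 26571 in experiment 2. Mitochondrially encoded transcripts took 1.01 to 1.14% of counts in experiment 1 and 2.27 to 2.85% in experiment 2. Cytosolic ribosomal protein transcripts took 6.47 to 7.25% and 5.25 to 5.57%. Neither share overlapped between the experiments, and each difference had an exact two-sided permutation p of 0.1, the smallest that 3 against 3 libraries allow. Transcripts of the sex chromosomes differed between mice. Xist, the RNA that silences an X chromosome, stood at 46.001, 46.9 and 2.51 CPM in experiment 1 and at 0.0305, 0.0606 and 0 CPM in experiment 2. Ddx3y, a Y-linked gene, stood at 0, 0 and 83.4 CPM in experiment 1 and at 64.5, 86.1 and 74.2 CPM in experiment 2. CPM are counts scaled to library depth, here by the trimmed mean of M values (TMM) unless stated otherwise. The first and second mouse of experiment 1 therefore carried Xist without Ddx3y, the third carried Ddx3y with a little Xist, and the mice of experiment 2 carried Ddx3y. The part of these measures in the results below was not tested, other than by leaving libraries out.

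The sorted cells carried the transcripts of CD8 T cells. Cd8a, the CD8 alpha chain, stood at 412, 335 and 399.6 CPM in experiment 1 and at 629, 662 and 660.4 CPM in experiment 2, while Cd4 was at most 0.447 CPM of the library total. Of 17 markers of B cells, 10 were under 1 CPM in all 6 libraries, and Ms4a1 had 1 count in total. The summed B cell list came to 263 to 397 CPM in experiment 1 and 423 to 523 CPM in experiment 2, but only to 36.4 to 44.2 and 42.5 to 49.1 CPM without Ighm. Of 15 macrophage and monocyte markers, 13 were under 1 CPM throughout, with Lyz2 and Itgam at 0. The dendritic cell list summed to 249 to 289.8 CPM in experiment 1 and to 297 to 408 CPM in experiment 2, nearly all of it from H2-Ab1, an MHC class II gene, and Batf3, an AP-1 gene that was lower in experiment 2. Neutrophil and mast cell markers summed to 8.37 to 14.1 and 4.87 to 7.29 CPM, and stromal and endothelial markers, nearly all of it Pecam1, to 12.1 to 14.8 and 47.7 to 48.7 CPM. Of 9 markers of CD4, regulatory and gamma delta T cells, 4 were under 1 CPM throughout, and the list summed to 310.0 to 555 and 356 to 429 CPM, mostly from the gamma chain constant gene Trgc1. Red cell and platelet markers summed to 0.791 to 1.10 and 2.64 to 2.92 CPM, and markers of organs outside the spleen to 10.4 to 13.97 and 30.97 to 35.8 CPM.

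T cell receptor V segments differed between the experiments. The sequences of 3 V beta segments are shown because they carry this difference, with the last 90 bases of each from the GENCODE annotation of GRCm38, where all 3 lie on the plus strand (chr6:41113550-41114067, chr6:41118851-41119364, chr6:41135145-41135616). Capitals mark bases that differ from Trbv12-1 at the same distance from the end.
Trbv12-1: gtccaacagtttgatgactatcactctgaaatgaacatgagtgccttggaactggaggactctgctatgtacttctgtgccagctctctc
Trbv12-2: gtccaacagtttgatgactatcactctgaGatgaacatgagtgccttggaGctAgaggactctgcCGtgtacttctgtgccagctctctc
Trbv14: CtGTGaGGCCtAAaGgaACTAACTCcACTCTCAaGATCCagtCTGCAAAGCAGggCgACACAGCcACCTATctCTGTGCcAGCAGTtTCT
Over these bases Trbv12-2 differs from Trbv12-1 at 5 positions, so reads of the pair can be assigned to the wrong segment, whereas Trbv14 differs at 71 positions when set end to end without gaps. In CPM of the library total, Trbv12-1 stood at 173, 169 and 198 in experiment 1 and at 0.344, 0.304 and 0.550 in experiment 2. Trbv14, which the pmel-1 receptor uses in its beta chain, had no count in experiment 1 and stood at 2598, 2621 and 2876 CPM in experiment 2. Trbv12-2 stood at 0.231, 0.0974 and 0.592 and at 35.6, 38.8 and 36.9 CPM. These levels match the strain labels of experiment 1 (OT-1) and go against its titles (Pmel-1), so its libraries are called by their experiment here. Trav14-1 and Trav14-2, of the V alpha family of the OT-1 receptor, did not pass the test (adjusted p = 0.15 and 0.12). Another 3 V segments reached 10 CPM in any library. Trav17 stood at 1.94, 1.998 and 2.37 CPM in experiment 1 and at 14.7, 13.8 and 17.2 CPM in experiment 2. Trav12-2 stood at 0.560, 1.73 and 0.562 CPM and at 8.56, 8.86 and 17.2 CPM. Trbv13-1 had no count in experiment 1 and stood at 8.49, 9.36 and 10.98 CPM in experiment 2. Of these 6 segments, all but Trbv12-1 were higher in every library of experiment 2, and no V alpha segment exceeded 17.2 CPM in any untreated library.

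Over all genes, 15688 passed the filter on low counts, and 8131 of them differed between the experiments (edgeR quasi-likelihood test with Benjamini-Hochberg adjustment, threshold 0.05). That is a background of 51.8% of genes called: 4182 or 26.7% were higher in experiment 2 and 3949 or 25.2% were lower. A stricter test, that the absolute log2 fold change exceeds 1 (glmTreat of edgeR), called 1359 higher (8.66%) and 1065 lower (6.79%). For 31.5% of genes every library of experiment 2 lay above every library of experiment 1, and for 28.4% below. Log2 fold changes are given throughout as experiment 2 over experiment 1, so a negative value is lower in experiment 2. Where a pair of value triples follows a gene's name, the first holds the 3 mice of experiment 1 and the second those of experiment 2. Their median over all genes tested was 0.11 with TMM scaling and -0.01 with cyclic loess normalization. With so many genes called, the shares of each list called higher and lower are printed beside its counts, to be read against the 26.7% and 25.2% of all genes.

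The direction of change moved with transcript composition and level. Across genes with a reference transcript (96.6% of those tested), the log2 fold change and transcript GC content had a Spearman rho of 0.30 over 15148 genes, which share their libraries and are not replicates. In the quintile of genes with the lowest GC content, 10.8% were called higher and 38.6% lower, and in the quintile with the highest, 44.4% and 12.4%. Genes in the shortest quintile by transcript length had a median log2 fold change of -0.25, against 0.28 in the middle quintile. In the quintile with the highest level, 22.1% were higher and 59.5% lower in experiment 2, and in the lowest quintile 20.7% and 5.80%. Medians of the main lists are therefore printed beside their value after trend removal. That removed a smooth trend with GC content and length from every library, but none with level. The shares over all genes are thus not matched for level, which matters most for lists of highly expressed genes. The plot of calls by quintile shows these shares.

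**Figure D1:**
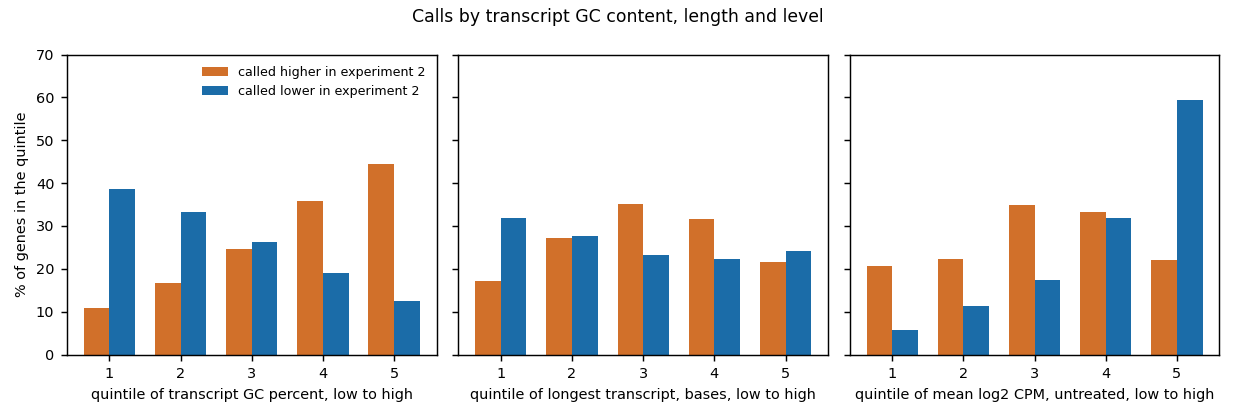
Percentage of tested genes called higher (orange) or lower (blue) in experiment 2, in quintiles of transcript GC content, transcript length and mean level, each ordered from low to high. Calls of higher genes range from 10.8% to 44.4% across the GC quintiles.

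By the naming rule, the largest falls among well measured genes were led by natural killer receptors. Klra5, a receptor of the Ly49 family, stood at 276, 239 and 266 CPM in experiment 1 and at 5.68, 3.09 and 2.36 CPM in experiment 2 (log2 fold change -6.14 ± 0.41 (SE), adjusted p = 8.2e-09). Klrc1, the inhibitory receptor NKG2A, stood at 238, 142 and 197 CPM and at 5.74, 7.94 and 13.4 CPM (log2 fold change -4.40 ± 0.31 (SE), adjusted p = 1.8e-08). Fcer1g, the adaptor that carries the signal of several activating receptors, stood at 65.6, 109 and 136 and 10.998, 6.73 and 6.10 CPM. For all 3 genes every library of experiment 1 was above every library of experiment 2, which the naming rule required. Next came Spp1 (-3.21), which encodes the secreted protein osteopontin, Mir155hg (-3.05), the precursor gene of miR-155, Eomes (-2.99), a T-box transcription factor, and the granzymes Gzme (-2.81), Gzma (-2.57) and Gzmd (-2.56). The other 6 of the 15 were Mrpl42 (-2.82), Lsm7 (-2.75), Brix1 (-2.67), Timm17a (-2.55), Zfp948 (-2.53) and Ranbp1 (-2.50). These include a mitochondrial ribosomal protein, a ribosome assembly factor, a mitochondrial import subunit and a cofactor of nuclear transport.

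The largest rises were led by Vaultrc5, a small vault RNA, at 5.38, 5.63 and 3.28 CPM in experiment 1 and 161, 135 and 138 CPM in experiment 2 (log2 fold change 4.92 ± 0.18 (SE), adjusted p = 2.9e-11). Ckb, the brain-type creatine kinase that buffers ATP, stood at 4.37, 3.99 and 4.27 CPM and 73.2, 89.8 and 92.9 CPM. Gsn, the actin-severing protein gelsolin, stood at 3.67, 7.12 and 8.09 CPM and 105, 79.00000 and 134 CPM. Cd81, a tetraspanin, stood at 4.53, 7.72 and 3.67 CPM and 78.8, 70.6 and 102 CPM (log2 fold change 3.96 ± 0.27 (SE), adjusted p = 1.3e-08). None of these 4 genes overlapped between the experiments, which the naming rule required as well. The others were Ccr7 (3.357), Unc93b1 (3.30), a chaperone of endosomal Toll-like receptors, Igfbp4 (3.29), St6gal1 (3.27), a sialyltransferase, Pygl (3.25), glycogen phosphorylase (3.92 without the third mouse of experiment 1), P2rx4 (3.09), an ATP-gated channel, Junb (3.04) and Slc16a3 (2.97), the lactate exporter MCT4. Another 3, Rps2-ps10 (3.199), Eno1b (3.14) and Rpl27-ps3 (3.11), share sequence with near-identical copies and are uncertain.

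Cytotoxic genes did not move as 1 block. Of the effector and cytotoxic list's 32 tested members, 9 were higher (28.1%) and 12 lower (37.5%) in experiment 2. The median log2 fold change was -0.31 (-0.24 after the GC and length trend was removed). With cyclic loess, 11 were higher and 9 lower (median -0.0032). Gzmb, granzyme B, stood at 8482, 10224 and 8567 CPM in experiment 1 and at 9834, 9165 and 9038 CPM in experiment 2, and these libraries overlapped (log2 fold change 0.04 ± 0.11 (SE), adjusted p = 0.78). Gzma, granzyme A, stood at 7247, 9766 and 9204 CPM and at 1655, 1446 and 1316 CPM, with no overlap (log2 fold change -2.57 ± 0.12 (SE), adjusted p = 2.3e-10). Gzmc stood at 640.0, 628 and 636 CPM and 232, 127 and 202 CPM, and Gzme at 30.9, 86.8 and 65.3 CPM and 8.74, 12.2 and 5.17 CPM. Gzmd was lower as well (log2 fold change -2.56 ± 0.70 (SE), adjusted p = 0.0066). The granzyme c to f genes are neighbouring, similar genes, so reads may be shared between them. Gzmk had a log2 fold change of -2.69 ± 1.12 with means of 1.92 and 0.296 CPM and was not called (adjusted p = 0.058).

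Prf1, the pore-forming protein perforin, stood at 28.2, 44.8 and 37.04 CPM and 56.4, 30.4 and 52.1 CPM and did not pass the test (adjusted p = 0.26). Fasl, the death ligand, was lower in experiment 2, at 233, 231 and 268 CPM and 95.98, 98.2 and 90.7 CPM (log2 fold change -1.36 ± 0.08 (SE), adjusted p = 2.8e-09). Serpinb9, an inhibitor of granzyme B, was lower (log2 fold change -1.16 ± 0.15 (SE), adjusted p = 1.1e-05). Nkg7, a granule membrane protein, was lower (log2 fold change -1.02 ± 0.06 (SE), adjusted p = 3.3e-09) but had a log2 fold change of 0.12 with cyclic loess. Tnf was higher, at 18.1, 18.4 and 19.3 CPM and 53.2, 49.9 and 43.7 CPM. Ifng had means of 0.790 and 0.830 CPM and was not called. The transcription factors of effector cells were split: Tbx21, which encodes T-bet, stood at 10.8, 3.85 and 5.09 CPM in experiment 1 and 21.9, 32.5 and 18.9 CPM in experiment 2 (log2 fold change 1.90 ± 0.31 (SE), adjusted p = 1.2e-04), and its relative Eomes at 39.4, 58.3 and 38.7 CPM and 6.08, 5.64 and 5.45 CPM (log2 fold change -2.99 ± 0.23 (SE), adjusted p = 4.2e-08). Prdm1, which encodes BLIMP1, was higher (log2 fold change 1.36 ± 0.24 (SE), adjusted p = 1.9e-04), as were Bhlhe40 (1.36) and Irf8 (1.18). Zeb2 was under 1 CPM in every library and was not called. The T-bet and Eomes genes thus moved in opposite directions, each without overlap between libraries.

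Among receptors first known from natural killer cells, more were lower than higher in experiment 2. Of the list's 21 tested members, 1 was higher (4.76%) and 9 lower (42.9%) in experiment 2, and the median was -1.50 (-1.12 after trend removal). Another 11 of its 32 genes were too low to test. Klrd1, which encodes CD94, stood at 196, 145 and 190.0 CPM in experiment 1 and at 55.8, 65.6 and 66.7 CPM in experiment 2 (log2 fold change -1.50 ± 0.18 (SE), adjusted p = 5.8e-06). Klrk1, which encodes NKG2D, stood at 475, 299 and 405 CPM and at 96.05, 114 and 116 CPM (log2 fold change -1.86 ± 0.20 (SE), adjusted p = 1.9e-06). CD94 pairs with the products of Klrc1 and Klrc2, and Klrc2 was lower too (-2.99, adjusted p = 1.4e-04). Klre1 (-3.68) and Klrb1c (-3.90) were also lower. The single member called higher was Cd226, an activating adhesion receptor (log2 fold change 0.66 ± 0.21 (SE), adjusted p = 0.018), and it lost the call without the first mouse of experiment 1 (0.51, adjusted p = 0.081) or the second (0.55, adjusted p = 0.075). Tyrobp, the adaptor DAP12, was low in both experiments, with means of 1.52 and 0.472 CPM, and Hcst, the adaptor DAP10, did not pass the test (-0.23, adjusted p = 0.053). Klrg1, a marker of terminal effector cells, had means of 1.81 and 0.315 CPM and was not called (adjusted p = 0.097).

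**Figure D2:**
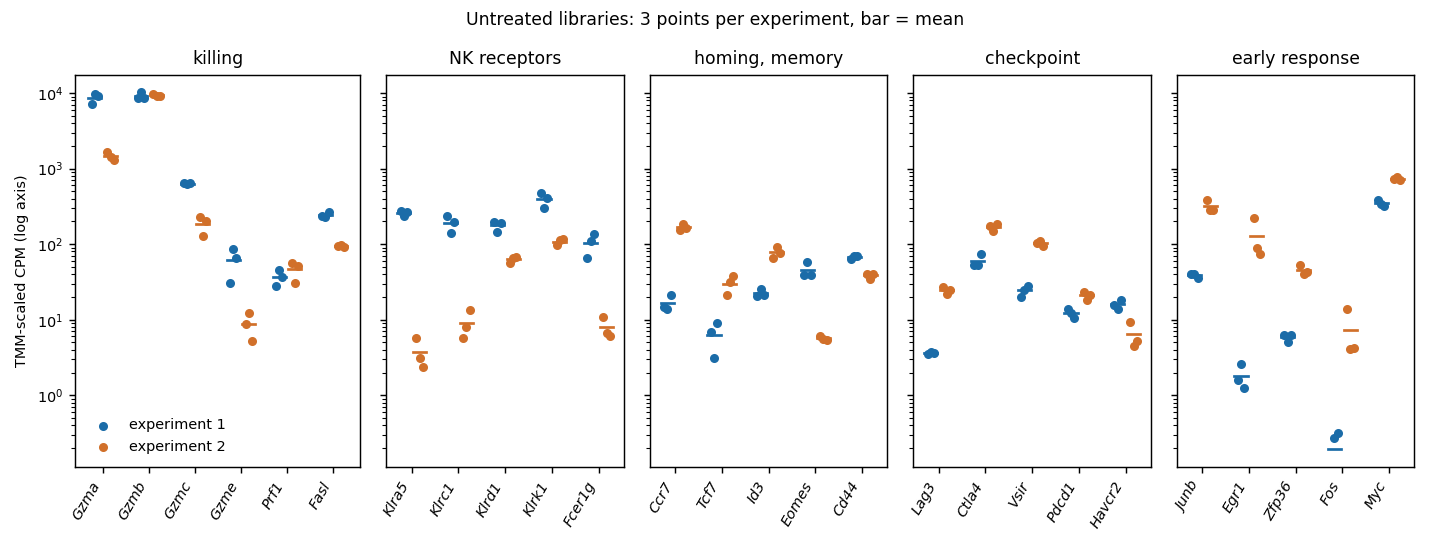
TMM-scaled CPM on a log axis of genes named in the text in the 3 untreated libraries of experiment 1 (blue) and of experiment 2 (orange), with a bar at each mean. Gzmb overlaps between the experiments, whereas Gzma, Klra5, Ccr7 and Egr1 do not, and a Fos value of 0 in experiment 1 is not drawn.

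Genes of naive, stem-like and central memory cells were mostly higher in experiment 2. Of the list's 25 tested members, 14 were higher (56%) and 5 lower (20%) in experiment 2, with a median of 0.63 (0.55 after trend removal). Ccr7, which guides cells into lymph nodes, stood at 14.5, 13.8 and 20.9 CPM in experiment 1 and at 156, 182 and 166 CPM in experiment 2 (log2 fold change 3.357 ± 0.16 (SE), adjusted p = 3.2e-10). Tcf7 stood at 6.87, 3.13 and 9.11 CPM and 21.4, 31.3 and 37.6 CPM (log2 fold change 2.25 ± 0.30 (SE), adjusted p = 1.7e-05), and Lef1, its partner in the same family, at 56.8, 50.02 and 70.2 CPM and 98.6, 108 and 110.4 CPM. Id3, an inhibitor of E proteins that marks memory precursors, stood at 20.6, 25.3 and 21.05 CPM and 65.8, 92.9 and 75.4 CPM. Slamf6 (log2 fold change 2.02 ± 0.27 (SE), adjusted p = 1.6e-05), Bach2 (log2 fold change 1.002 ± 0.22 (SE), adjusted p = 0.0015) and Il7r, the receptor for the survival cytokine IL-7 (log2 fold change 0.82 ± 0.20 (SE), adjusted p = 0.0028), were higher too. The lower members included Eomes and Ly6c2, a surface protein of memory cells (log2 fold change -1.73 ± 0.20 (SE), adjusted p = 2.9e-06).

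Inhibitory receptors were more often higher than lower. Among 21 tested members, 11 were higher (52.4%) and 2 lower (9.52%) in experiment 2 (median 1.10, 1.05 after trend removal). Lag3 stood at 3.55, 3.70 and 3.67 CPM in experiment 1 and 27.4, 22.2 and 24.5 CPM in experiment 2 (log2 fold change 2.76 ± 0.20 (SE), adjusted p = 1.7e-08). Ctla4 stood at 53.8, 53.6 and 74.3 CPM and 172, 150.2 and 184 CPM, and Vsir, which encodes VISTA, at 20.1, 25.01 and 28.004 CPM and 105, 112 and 94.5 CPM. Pdcd1, which encodes PD-1, had an adjusted p of 0.039, at 13.9, 12.3 and 10.4 CPM and 23.3, 18.3 and 21.2 CPM, a log2 fold change of 0.78. Pdcd1 lost the call without the second mouse of experiment 1 (0.79, adjusted p = 0.082), the third (0.68, adjusted p = 0.12), or the first (0.78, adjusted p = 0.077) or the third of experiment 2 (0.84, adjusted p = 0.058). It was also lost with cyclic loess (0.62, adjusted p = 0.093) and after trend removal (0.41, adjusted p = 0.27). Havcr2, which encodes TIM-3, was lower, at 15.5, 13.95 and 18.4 CPM in experiment 1 and 9.41, 4.55 and 5.17 CPM in experiment 2 (log2 fold change -1.33 ± 0.29 (SE), adjusted p = 0.0013). Tigit, Entpd1 and the exhaustion factor Tox did not pass the test (adjusted p = 0.12, 0.38 and 0.061). Cd200, which restrains myeloid cells through its receptor, was higher (log2 fold change 1.73 ± 0.40 (SE), adjusted p = 0.0021), and Nr4a3, an orphan nuclear receptor, was lower (-2.70, and -3.80 without the third mouse of experiment 2). Lag3 and Ctla4 were thus higher while Havcr2 was lower in the same bulk libraries.

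The chemokine list was called at shares near those of all genes, and its members are given as single values. Of the chemokine list's 18 tested members, 6 were higher (33.3%) and 5 lower (27.8%) in experiment 2, and 8 of its 26 genes were too low to test. Ccr4, known from skin-homing and type 2 cells, stood at 3.82, 1.73 and 2.58 CPM in experiment 1 and 18.7, 16.8 and 15.2 CPM in experiment 2. Cxcr3, the receptor for interferon-induced chemokines, stood at 28.2, 12.1 and 19.8 CPM and 27.95, 40.9 and 28.9 CPM (log2 fold change 0.71 ± 0.25 (SE), adjusted p = 0.03). Cxcr3 lost the call without the second mouse of experiment 1 (0.44, adjusted p = 0.12), the third (0.70, adjusted p = 0.067) or the second of experiment 2 (0.57, adjusted p = 0.11), and after trend removal (0.53, adjusted p = 0.11). Ccr2, a receptor of cells that enter inflamed tissue, was lower, at 166, 180.0 and 216 CPM and 75.98, 86.8 and 101 CPM (log2 fold change -1.09 ± 0.12 (SE), adjusted p = 2.4e-06). Cxcr6 had a log2 fold change of -0.85 ± 0.14, which lost the call with cyclic loess (adjusted p = 0.37). The chemokine Ccl5 was lower as well, at 70.2, 37.8 and 34.01 CPM and 7.55, 9.97 and 19.5 CPM (adjusted p = 0.007). Of the homing and adhesion list's 27 tested members, 11 were higher (40.7%) and 5 lower (18.5%) in experiment 2 (median 0.34). Itgb7, an integrin chain of gut homing, had means of 104 ± 15.5 and 441 ± 32.6 CPM (SD, n = 3), and its partner Itga4 was also higher (1.53). Itgae, the CD103 chain that pairs with Itgb7 in tissue-resident cells, stood at 1.79, 0.805 and 1.02 CPM and 4.002, 5.52 and 10.2 CPM. The egress receptors S1pr1 (1.51) and S1pr4 (2.16) and the integrin chain Itgb2 (1.69) were higher. Cd44, an adhesion receptor of antigen-experienced cells, was lower, at 64.5, 69.2 and 70.1 CPM and 39.9, 35.1 and 40.8 CPM (log2 fold change -0.82 ± 0.10 (SE), adjusted p = 9.0e-06), and Cd69 was not called (adjusted p = 0.88).

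Cytokine receptors and their signalling chain were mostly higher in experiment 2. Of the receptor list's 25 tested members, 16 were higher (64%) and 1 lower (4%) in experiment 2 (median 1.02, 0.71 after trend removal), and of the signalling list's 21 tested members, 17 were higher (81%) and 2 lower (9.52%) in experiment 2 (median 0.997, 0.56 after trend removal). The IL-2 receptor was split by chain. Il2ra stood at 279, 339 and 262 CPM in experiment 1 and 600.4, 596 and 595 CPM in experiment 2, and Il2rb at 165, 170.0 and 154 CPM and 415, 360.2 and 357 CPM. Il2rg, the chain shared with several other receptors, was the only lower member, at 953, 948 and 1053 CPM and 425, 433 and 482 CPM (log2 fold change -1.14 ± 0.07 (SE), adjusted p = 3.2e-09). Il27ra (2.36), Il10ra (1.90), Il4ra (1.84) and Il21r (1.67) were higher. Jak3, the kinase that binds the product of Il2rg, stood at 17.5, 15.5 and 15.3 CPM and 128, 115 and 129.9 CPM (log2 fold change 2.95 ± 0.13 (SE), adjusted p = 1.4e-10), while Jak2 was lower (log2 fold change -0.72 ± 0.18 (SE), adjusted p = 0.0037). Of the listed brakes on this signalling, the 4 feedback inhibitors of the SOCS family were higher: Socs3 (3.02), Socs1 (1.92), Cish (1.59) and Socs2 (0.48). The phosphatase gene Ptpn6 was higher as well (log2 fold change 1.08 ± 0.11 (SE), adjusted p = 1.0e-06). Its relative Ptpn2, which dephosphorylates JAK and STAT proteins, was lower (log2 fold change -0.37 ± 0.08 (SE), adjusted p = 0.0019), but not with cyclic loess (0.10), after trend removal (0.05) or without the first mouse of experiment 2 (-0.21, adjusted p = 0.072). Stat6, which transmits IL-4 signals, and Stat5b, which transmits IL-2 signals, had log2 fold changes of 1.71 ± 0.13 and 1.18 ± 0.14, whereas Stat4 was not called (-0.12).

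Among cytokines and TNF family ligands, of 24 tested members, 8 were higher (33.3%) and 6 lower (25%) in experiment 2, near the shares of all genes (median 0.12, but -0.14 with cyclic loess). Osm, oncostatin M, stood at 13.9, 11.4 and 10.5 CPM in experiment 1 and 58.8, 59.4 and 50.5 CPM in experiment 2, and Lta (0.66), lymphotoxin alpha, was higher. Spp1 stood at 732, 1023 and 1053 CPM and 106, 73.9 and 122 CPM, a lower level in each library of experiment 2 (log2 fold change -3.21 ± 0.24 (SE), adjusted p = 2.5e-08). Of the type 2 and type 17 list's 8 tested members, 5 were higher (62.5%) and 0 lower (0%) in experiment 2, and 10 of its 18 genes were too low to test. The higher members included Ccr4, Rora (log2 fold change 1.66 ± 0.26 (SE), adjusted p = 7.0e-05) and Gata3, the factor of type 2 cells (log2 fold change 1.04 ± 0.19 (SE), adjusted p = 3.4e-04). Gata3 lost its call after trend removal (0.38, adjusted p = 0.1). After trend removal 3 members of that list were called higher.

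Immediate early genes, which are induced within minutes of stimulation, were more often higher than lower. Of the list's 28 tested members, 15 were higher (53.6%) and 5 lower (17.9%) in experiment 2, with a median of 0.73 (0.43 after trend removal, then with 9 members lower). Egr1, a zinc finger factor downstream of the MAP kinases, stood at 1.60, 2.56 and 1.24 CPM in experiment 1 and at 222, 87.9 and 74.4 CPM in experiment 2 (log2 fold change 6.13 ± 0.63 (SE), adjusted p = 1.0e-06). Fos, a subunit of AP-1, stood at 0, 0.268 and 0.318 CPM and 13.7, 4.06 and 4.18 CPM, a log2 fold change of 5.15, or 4.42 without the first mouse of experiment 2. That mouse was the highest of experiment 2 for Egr1, Fos, Junb, Zfp36 and Ier2. Junb, its partner, stood at 40.1, 40.03 and 35.7 CPM and 386, 282 and 285 CPM (log2 fold change 3.04 ± 0.14 (SE), adjusted p = 2.5e-10), and Jun was higher (log2 fold change 1.40 ± 0.16 (SE), adjusted p = 3.2e-06). Zfp36, which destabilizes cytokine mRNAs, stood at 6.36, 5.07 and 6.22 CPM and 53.7, 39.7 and 42.3 CPM, and Ier2 at 51.3, 46.9 and 52.3 CPM and 314, 219.7 and 186 CPM. None of these 6 genes overlapped between the experiments. Nr4a1 was higher (log2 fold change 1.87 ± 0.46 (SE), adjusted p = 0.0031, but 1.05, adjusted p = 0.052, after trend removal) and Nr4a3 lower, while Nr4a2, Egr2 and Egr3 were not called (adjusted p = 0.16, 0.48 and 0.082). The AP-1 members Batf3 (-1.29) and Fosl2 (-0.63) were lower. Myc, the growth regulator, stood at 379, 339.7 and 321 CPM and 723, 768 and 712 CPM (log2 fold change 1.08 ± 0.09 (SE), adjusted p = 7.6e-08).

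Glycolysis genes were higher in experiment 2, with a pair of exceptions. Among 24 tested members, 22 were higher (91.7%) and 2 lower (8.33%) in experiment 2, and 13 passed the test for a log2 fold change above 1. The median was 1.31, 1.03 after trend removal and 2.33 with cyclic loess. In the order of the pathway, the glucose transporters Slc2a1 and Slc2a3 had log2 fold changes of 1.25 ± 0.10 and 2.34 ± 0.16. Hk1, a hexokinase, stood at 18.5, 18.5 and 21.7 CPM in experiment 1 and 111, 89.7 and 90.6 CPM in experiment 2, whereas its isoform Hk2 was lower, at 245, 262 and 304 CPM and 207, 176 and 180.1 CPM (log2 fold change -0.53 ± 0.09 (SE), adjusted p = 2.1e-04), although with cyclic loess its log2 fold change was 0.0042. Phosphofructokinase genes Pfkl (2.09), Pfkp (1.76) and Pfkm (1.49) were higher, followed by Aldoa (1.38), Tpi1 (1.18), Pgk1 (0.65) and Pgam1 (1.05). Gapdh stood at 1580.1, 1396 and 1654 CPM and 5917, 5898 and 6527 CPM (log2 fold change 1.99 ± 0.07 (SE), adjusted p = 3.3e-11). Pkm, pyruvate kinase, stood at 633, 578 and 626 CPM and 3155, 3039.9 and 3122 CPM (log2 fold change 2.34 ± 0.08 (SE), adjusted p = 1.3e-11). Ldha, which turns pyruvate into lactate, stood at 2236, 2029 and 2089.6 CPM and 7567, 7674 and 7585 CPM (log2 fold change 1.84 ± 0.06 (SE), adjusted p = 1.3e-11), and Slc16a3, which exports lactate, at 20.95, 18.5 and 23.4 CPM and 185, 172 and 137 CPM. Gapdh, Eno1 and Ldha have many processed pseudogenes that can take or give reads. Bpgm, which makes a side product of the pathway, was the other lower member (-0.76). Eno2, an enolase first known from neurons, had no count in experiment 1 and stood at 2.20, 0.485 and 1.999 CPM in experiment 2, at least 46.2-fold higher than the level of 3 counts over the experiment 1 libraries (adjusted p = 7.5e-05).

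Genes induced by low oxygen were mostly higher too. Of the hypoxia list's 24 tested members, 17 were higher (70.8%) and 1 lower (4.17%) in experiment 2 (median 0.75, 0.65 after trend removal). Slc2a1, Pfkfb3 and Pfkfb4 stand in both lists. Egln3, a prolyl hydroxylase that is itself a target of HIF, stood at 57.04, 57.9 and 76.8 CPM in experiment 1 and 327, 288 and 320.4 CPM in experiment 2 (log2 fold change 2.29 ± 0.14 (SE), adjusted p = 3.7e-09). P4ha1 (1.02) and Ndrg1 (2.08) were higher, Hif1a itself had a log2 fold change of 0.44 ± 0.07, and Higd1a was lower (log2 fold change -1.21 ± 0.07 (SE), adjusted p = 2.4e-09). The promoter of Ldha is shown because Ldha is a glycolysis gene and a known target of HIF. It is taken from RefSeq on GRCm38.p6, chr7:46845554-46845853, plus strand, from 250 bases before to 50 after the gene's start. Capitals mark ACGTG, the core that HIF binds, on either strand, and adjacent matches on opposite strands overlap in CACGTG.
Ldha: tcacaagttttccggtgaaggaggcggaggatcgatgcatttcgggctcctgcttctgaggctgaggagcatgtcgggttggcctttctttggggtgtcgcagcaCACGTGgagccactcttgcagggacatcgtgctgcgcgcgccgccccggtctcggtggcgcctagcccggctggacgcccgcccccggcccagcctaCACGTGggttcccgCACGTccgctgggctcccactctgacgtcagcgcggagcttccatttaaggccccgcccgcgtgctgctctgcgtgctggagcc
ACGTG was found 5 times here on both strands together. It occurs in 19.6% of all 32851 promoters of this length, in 17 of 35 promoters of glycolysis genes and in 20 of 30 promoters of the hypoxia list. A match describes the sequence only, and HIF binding was not measured in these cells.

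Respiratory chain genes moved opposite to glycolysis when nuclear and with it when mitochondrial. Of the nuclear-encoded list's 52 tested members, 4 were higher (7.69%) and 46 lower (88.5%) in experiment 2, with a median of -1.02, -0.85 after trend removal and -0.40 with cyclic loess. Cox7c, a small subunit of cytochrome c oxidase, stood at 994, 1122 and 1039.7 CPM in experiment 1 and 256, 259 and 276 CPM in experiment 2 (log2 fold change -1.996 ± 0.06 (SE), adjusted p = 1.2e-11). Ndufc1 and Ndufb10, subunits of complex I, had log2 fold changes of -1.96 ± 0.06 and -1.70 ± 0.06. Cycs, cytochrome c, was lower too (log2 fold change -1.72 ± 0.07 (SE), adjusted p = 9.3e-11). Higher members included Atp5d (0.75) and Atp5a1 (0.55), subunits of ATP synthase. The list's tested transcripts had a median length of 1186 bases, against 3037 for glycolysis, and short transcripts were lower over all genes. Of the mitochondrially encoded list's 12 tested members, 11 were higher (91.7%) and 0 lower (0%) in experiment 2 (median 1.40). mt-Co1 stood at 1735, 1626 and 1765 CPM and 4819, 3975 and 4703 CPM, and mt-Nd2 at 446, 492 and 417 CPM and 1373, 1103 and 1102 CPM. mt-Co3 was at means of only 1.10 and 8.64 CPM, a level at which nuclear copies of mitochondrial DNA can hold the reads, so its value is uncertain.

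**Figure D3:**
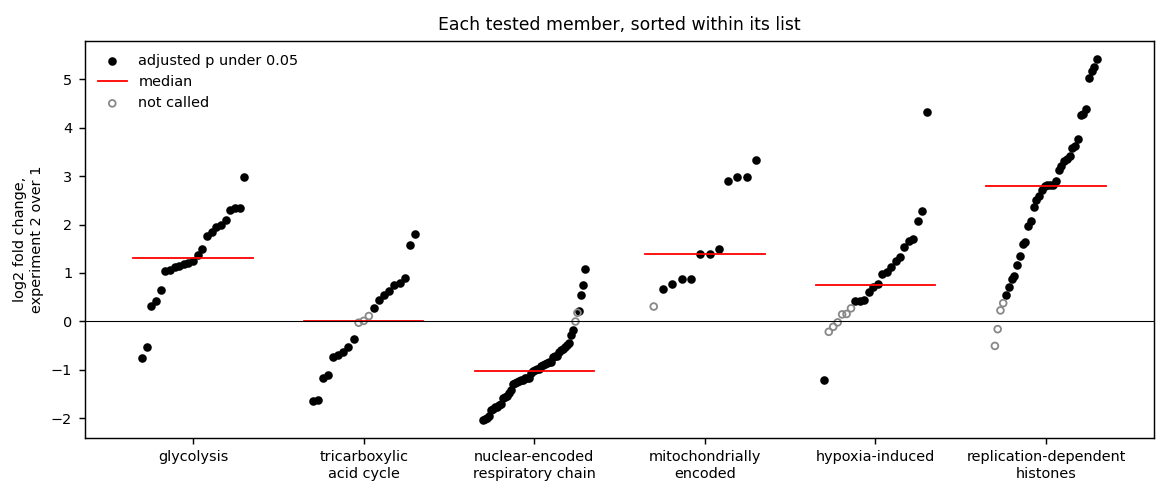
Log2 fold change of the tested members of 6 lists, sorted within its list, with called genes filled, genes not called open, and the median as a red line. Of 24 glycolysis members 22 are called higher, of which Eno2, at 0 in experiment 1, is not drawn, and of 52 nuclear respiratory chain members 46 lie below 0 and are called.

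The tricarboxylic acid cycle was split evenly with TMM scaling. Of its 21 tested members, 9 were higher (42.9%) and 9 lower (42.9%) in experiment 2 (median 0.01). With cyclic loess, 12 were higher and 5 lower (median 0.29). Idh2, which oxidizes isocitrate in mitochondria, stood at 27.8, 24.9 and 23.4 CPM in experiment 1 and at 77.3, 75.9 and 72.4 CPM in experiment 2. Sdhb, a subunit of succinate dehydrogenase, was lower (log2 fold change -1.64 ± 0.06 (SE), adjusted p = 2.5e-11) while Sdha, another subunit of the same enzyme, was higher (log2 fold change 0.90 ± 0.08 (SE), adjusted p = 1.4e-07). Sucla2 was lower (-1.63). Pyruvate dehydrogenase, the step that DCA is meant to release, and its regulators were also split: of 14 tested members, 5 were higher (35.7%) and 6 lower (42.9%) in experiment 2 (median -0.06, but 0.14 after trend removal and 0.05 with cyclic loess). Pdk1, the kinase that switches the enzyme off, stood at 52.98, 54.7 and 69.9 CPM in experiment 1 and 151, 139 and 155 CPM in experiment 2 (log2 fold change 1.32 ± 0.11 (SE), adjusted p = 1.1e-07). Its relative Pdk4 had 3 counts over the 6 libraries. The mitochondrial pyruvate carrier genes Mpc1 and Mpc2 were both lower (-1.59 ± 0.09 and -1.43 ± 0.07). Among the enzyme's subunits Dlat was higher (0.98) and Pdhb lower (-0.92).

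Replication-dependent histone genes, whose mRNAs end in a stem-loop in place of a poly(A) tail, were higher in experiment 2. Of 38 tested members, 34 were higher (89.5%) and 0 lower (0%) in experiment 2 (median 2.80, 2.46 after trend removal, 2.26 with cyclic loess). H1f2, a linker histone, stood at 4.17, 3.79 and 4.202 CPM in experiment 1 and 48.3, 35.1 and 36.99 CPM in experiment 2 (log2 fold change 3.31 ± 0.23 (SE), adjusted p = 1.3e-08). H2ac6 had means of 0.330 and 12.1 CPM, and H1f1 of 0.451 and 14.98 CPM. Histone genes are near-identical copies, so the split of reads between them is uncertain. Cell cycle genes moved less uniformly. Of the proliferation list's 37 tested members, 18 were higher (48.6%) and 14 lower (37.8%) in experiment 2 (median 0.16, -0.0033 after trend removal). With cyclic loess, 23 were higher and 7 lower (median 0.55). The MCM helicase genes, which open replication origins, were higher, with Mcm3, Mcm5 and Mcm7 at 1.24 ± 0.07, 1.16 ± 0.09 and 1.54 ± 0.10. Pcna (log2 fold change -1.15 ± 0.07 (SE), adjusted p = 3.3e-09), Tyms (log2 fold change -1.59 ± 0.08 (SE), adjusted p = 5.3e-10) and Birc5 (log2 fold change -1.56 ± 0.06 (SE), adjusted p = 4.8e-11) were lower. Mki67, the usual marker of cycling cells, stood at 289, 275 and 271 CPM and 242, 208 and 211 CPM (log2 fold change -0.34 ± 0.09 (SE), adjusted p = 0.0043), but had a log2 fold change of 0.21 with cyclic loess, and it lost the call without the second mouse of experiment 2 (-0.23, adjusted p = 0.074) or the third (-0.23, adjusted p = 0.073).

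Ribosome biogenesis genes were more often lower than higher, while Myc was higher. Among 30 tested members, 6 were higher (20%) and 12 lower (40%) in experiment 2 (median -0.24, -0.65 after trend removal). With cyclic loess the median was -0.10, with 8 members higher and 12 lower. Nop16 (log2 fold change -2.39 ± 0.13 (SE), adjusted p = 9.7e-10), Nhp2 (log2 fold change -2.16 ± 0.11 (SE), adjusted p = 3.9e-10) and Wdr12 (log2 fold change -1.68 ± 0.09 (SE), adjusted p = 1.5e-09), which assemble or modify ribosomal RNA, were lower. Bop1 (0.66) and Mybbp1a (0.47) were higher, but had log2 fold changes of -0.10 and -0.02 after trend removal. Of the integrated stress response list's 29 tested members, 10 were higher (34.5%) and 10 lower (34.5%) in experiment 2 (median -0.0048, but 0.33 with cyclic loess), with the serine synthesis enzyme Phgdh (1.31) and the glutamine carrier Slc1a5 (1.68) higher and Nars (-1.33) and Eif4ebp1 (-1.24) lower. Of the p53 target list's 24 tested members, 10 were higher (41.7%) and 3 lower (12.5%) in experiment 2 (median 0.43), with the death receptor Fas (1.80) and the kinase gene Plk2 (2.97) higher and Bax (-1.32) lower. Of the oxidative defence list's 27 tested members, 5 were higher (18.5%) and 11 lower (40.7%) in experiment 2 (median -0.15, but 0.10 with cyclic loess), with Prdx1 (-1.38) and Txn2 (-1.12) lower and Txnip (0.97) and Cat (0.91) higher. Of the chaperone list's 19 tested members, 4 were higher (21.1%) and 9 lower (47.4%) in experiment 2 (median -0.23), and cyclic loess turned this to 11 higher and 2 lower (median 0.40). Hspe1, the mitochondrial co-chaperonin, was lower (log2 fold change -2.29 ± 0.12 (SE), adjusted p = 7.0e-10) and Hspa5 of the endoplasmic reticulum higher (log2 fold change 0.62 ± 0.09 (SE), adjusted p = 3.7e-05).

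Lipid genes leaned higher. Of the cholesterol list's 24 tested members, 12 were higher (50%) and 6 lower (25%) in experiment 2 (median 0.40, 0.18 after trend removal), with Lss (1.71), Mvd (1.70) and Sqle (0.86), enzymes of the pathway, higher and Sc5d (-0.996) and Stard4 (-0.82) lower. Of the fatty acid list's 32 tested members, 20 were higher (62.5%) and 6 lower (18.8%) in experiment 2 (median 0.43). Acadvl, which starts the oxidation of very long chains, stood at 4.53, 4.89 and 6.39 CPM in experiment 1 and 38.6, 39.5 and 39.6 CPM in experiment 2 (log2 fold change 2.89 ± 0.18 (SE), adjusted p = 5.4e-09). Etfa, which passes electrons from that oxidation to the respiratory chain, was lower (log2 fold change -1.41 ± 0.06 (SE), adjusted p = 9.0e-11).

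MHC class I genes were mostly higher in experiment 2. Among 23 tested members, 15 were higher (65.2%) and 3 lower (13%) in experiment 2 (median 0.66, 0.39 after trend removal). H2-D1, a classical heavy chain, stood at 1185, 1078 and 1042 CPM in experiment 1 and at 4038, 3873 and 4035 CPM in experiment 2. H2-K1, the other classical heavy chain, stood at 666, 663 and 622 CPM and at 1431, 1398 and 1439 CPM. Their shared light chain B2m was higher as well (log2 fold change 1.10 ± 0.07 (SE), adjusted p = 7.4e-09). H2 genes are similar to each other, and reads may be shared among them. Tap1 (log2 fold change 1.72 ± 0.12 (SE), adjusted p = 1.0e-08) and Tapbp (log2 fold change 1.48 ± 0.08 (SE), adjusted p = 1.4e-09), which load peptides, were higher, and Psme2, an activator of the proteasome, was lower (log2 fold change -0.92 ± 0.06 (SE), adjusted p = 3.9e-09), though not with cyclic loess (adjusted p = 0.63). Of the antiviral interferon list's 33 tested members, 11 were higher (33.3%) and 8 lower (24.2%) in experiment 2 (median 0.32), near the shares of all genes. Ifit1 stood at 22.2, 10.1 and 15.6 CPM and 2.20, 0.485 and 0.805 CPM, lower in each library of experiment 2 (log2 fold change -3.78, or -4.53 without its first mouse), whereas Dhx58 (2.43), Parp9 (1.36) and Stat2 (1.55) were higher. Of the interferon-inducible GTPases' 17 tested members, 7 were higher (41.2%) and 3 lower (17.6%) in experiment 2 (median 0.50). Igtp (0.74) and Gbp2 (1.02) were higher, and Tgtp2 (-1.46) and Tgtp1 (-0.97), a near-identical pair, were lower.

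Within the T cell receptor complex, the subunits did not move together. Of the list's 30 tested members, 18 were higher (60%) and 5 lower (16.7%) in experiment 2 (median 0.41). Cd3e stood at 93.3, 90.6 and 116 CPM in experiment 1 and 341, 344 and 365 CPM in experiment 2 (log2 fold change 1.81 ± 0.11 (SE), adjusted p = 3.9e-09), and Cd247, the zeta chain, was higher (log2 fold change 1.02 ± 0.08 (SE), adjusted p = 6.7e-08). Cd3g was lower, at 2114, 2134 and 2534 CPM and 1427, 1433 and 1681 CPM (log2 fold change -0.58 ± 0.08 (SE), adjusted p = 1.6e-05), as was Cd3d (log2 fold change -0.40 ± 0.08 (SE), adjusted p = 7.5e-04), although Cd3e, Cd3d and Cd3g are neighbouring genes. With cyclic loess Cd3g and Cd3d were higher instead, by 0.47 and 0.53. The beta chain constant genes moved apart: Trbc2 stood at 936, 944 and 986 CPM and 3711, 3919.7 and 3264 CPM, and Trbc1 at 467, 459 and 495 CPM and 325, 322 and 359.8 CPM, although Trbc1 had a log2 fold change of 0.16 with cyclic loess. Trac, the alpha chain constant gene, was not called (log2 fold change 0.10 ± 0.09 (SE), adjusted p = 0.36). The genotype of experiment 2 carries the Thy1a allele, and Thy1 stood at 229.8, 239 and 205 CPM in experiment 1 and 138, 129.7 and 144 CPM in experiment 2 (log2 fold change -0.71 ± 0.09 (SE), adjusted p = 4.9e-06). Of the 30 tested genes listed around Thy1 on chromosome 9, 7 were higher (23.3%) and 10 lower (33.3%), beside 26.7% and 25.2% of all genes. Zap70 (1.43), Cd5 (1.46) and Cd6 (1.62), the receptor's kinase and a pair of its dampening coreceptors, were higher, and the kinase Fyn was lower (log2 fold change -0.94 ± 0.13 (SE), adjusted p = 2.8e-05).

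Long nuclear RNAs and host genes of small RNAs were lower or not called. Among 19 tested members, 0 were higher (0%) and 15 lower (78.9%) in experiment 2 (median -0.86, -0.74 after trend removal). Mir155hg stood at 57.4, 70.8 and 57.9 CPM in experiment 1 and 10.4, 5.94 and 6.13 CPM in experiment 2 (log2 fold change -3.05 ± 0.26 (SE), adjusted p = 1.6e-07). Mir17hg stood at 24.7, 27.4 and 21.1 CPM and 5.16, 6.21 and 6.54 CPM, and Dleu2 at 88.1, 98.9 and 111 CPM and 22.8, 17.2 and 19.2 CPM (log2 fold change -2.33 ± 0.15 (SE), adjusted p = 7.6e-09). The 5 mature miRNAs that lie in these 3 host genes are printed to show what they encode, from RefSeq on GRCm38.p6, with the seed (bases 2 to 8) in capitals. The mature miRNAs themselves were not measured.
miR-155-5p: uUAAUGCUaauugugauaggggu
miR-17-5p: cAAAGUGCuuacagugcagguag
miR-20a-5p: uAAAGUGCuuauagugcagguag
miR-15a-5p: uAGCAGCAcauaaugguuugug
miR-16-5p: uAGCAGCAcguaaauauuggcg
The first comes from Mir155hg (chr16:84714143-84714165, plus strand). miR-17-5p and miR-20a-5p come from Mir17hg (chr14:115043684-115043706 and chr14:115044183-115044205, plus strand) and share 1 seed. miR-15a-5p and miR-16-5p lie within Dleu2 (chr14:61632075-61632096 and chr14:61631936-61631957, minus strand) and share another. The small nucleolar RNA hosts Snhg15 (-1.69), Snhg6 (-1.56) and Snhg4 (-1.44) were lower, as was Malat1 (-1.09), a nuclear speckle RNA (not with cyclic loess, adjusted p = 0.67), while Neat1 (-0.22) was not called.

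**Figure D4:**
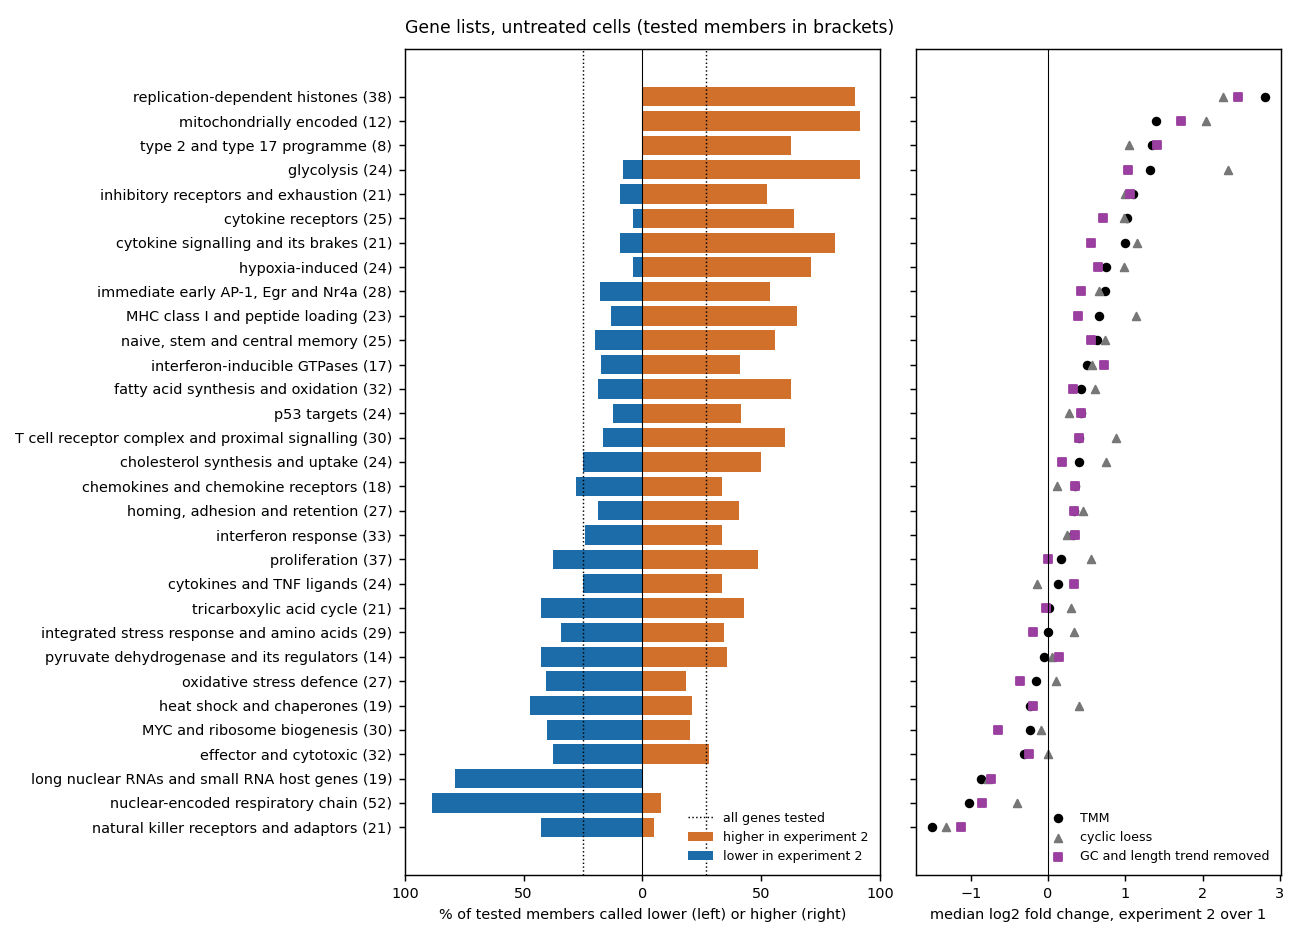
Left, the percentage of tested members of each gene list called lower (blue, leftward) or higher (orange, rightward) in experiment 2, with dotted lines at the shares over all genes. Right, the median log2 fold change of each list with TMM scaling, with cyclic loess, and after removal of the GC and length trend. Histones, glycolysis and the mitochondrially encoded genes lie to the right of 0 under all 3, and natural killer receptors, the nuclear respiratory chain and long nuclear RNAs to the left.

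The same contrast in the DCA-expanded cells is given side by side for genes of interest (68 genes of T cell state, receptor and metabolism), as these libraries come from the same mice and are no independent replicate. In the DCA arm 52.3% of genes were called, and the difference between the arms was called for 0.331%. Klra5 had a log2 fold change of -6.14 ± 0.41 (SE) in untreated and -6.27 ± 0.41 in DCA-expanded cells, and Klrc1 of -4.40 ± 0.31 and -4.40 ± 0.31. Ccr7 had 3.357 ± 0.16 and 3.15 ± 0.16, Tcf7 2.25 ± 0.30 and 2.01 ± 0.29, and Eomes -2.99 ± 0.23 and -3.34 ± 0.24. Gzma had -2.57 ± 0.12 and -3.27 ± 0.12, Gzmb 0.04 ± 0.11 and 0.07 ± 0.11, and Ldha 1.84 ± 0.06 and 1.99 ± 0.06. Of these 8 genes, all but Gzmb had the same sign in both arms with a call in each, and Gzmb was called in neither. Such agreement was general: of all 15688 genes tested, 6557 were called in both arms, and 6539 of these had the same sign. Among genes of interest in the text, 44 were called in untreated cells, and 40 of these in both arms with the same sign. The difference between the arms itself passed the edgeR test for 8 of the genes named here, 3 of them genes of interest. That test had no term for the mouse, so the pairing of the arms within mice was not used. Cd44 was -0.82 ± 0.10 in untreated and 0.30 ± 0.10 in DCA-expanded cells (difference -1.11, adjusted p = 0.011). Myc was 1.08 ± 0.09 and 1.96 ± 0.09 (difference -0.88, adjusted p = 0.011). Serpine2, which encodes a serine protease inhibitor of thrombin and plasminogen activators, was -1.03 ± 0.23 and 0.93 ± 0.23 (difference -1.96, adjusted p = 0.022).

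**Figure D5:**
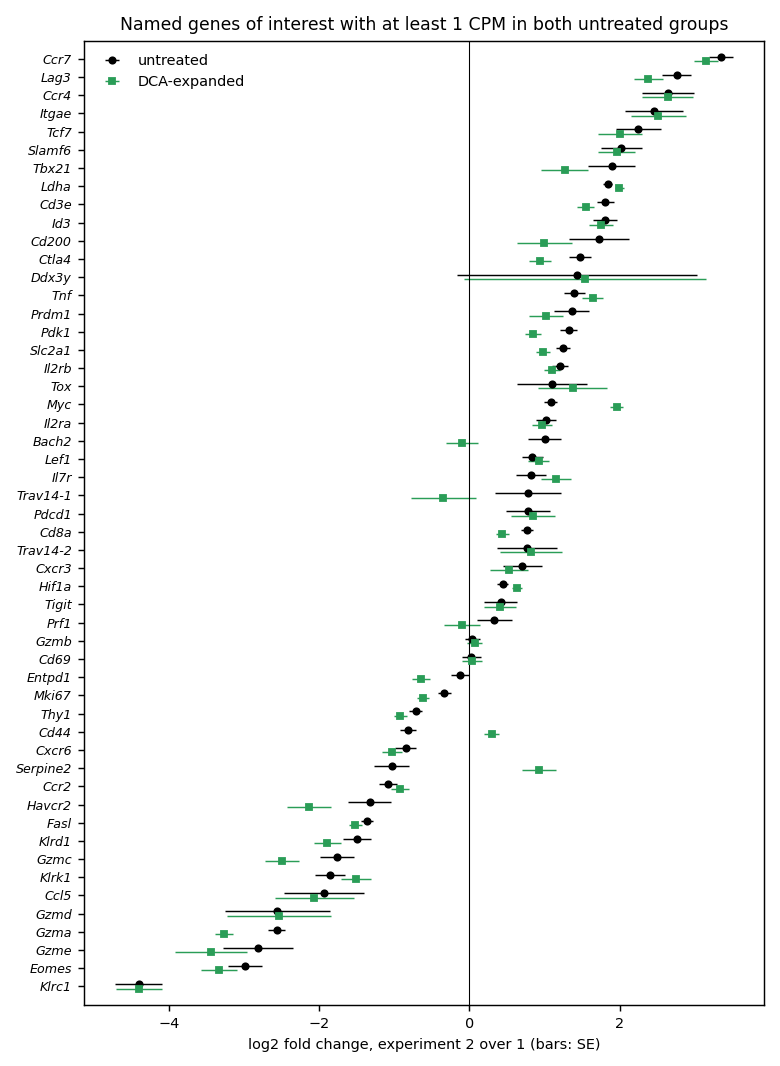
Log2 fold change of experiment 2 over experiment 1, with its standard error as a bar, for genes of interest named in the text with at least 1 CPM in both untreated groups, in untreated cells (black circles) and DCA-expanded cells (green squares). Among the genes drawn, the difference between the symbols passed the test for Serpine2, Cd44 and Myc.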

How the data were processed

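RNA was measured by bulk sequencing in 12 libraries, 3 mice in each of 4 groups, and the 6 untreated ones are compared here. The authors deposited raw counts per gene, which are whole numbers for 56748 Ensembl genes per the file headers. The submitters' processing notes name fastp 0.23.2, STAR 2.7.10a, edgeR 3.36.0 and GRCm39. No source used here names the counter, its strand setting or the annotation release, so reads of antisense and overlapping genes cannot be told apart. A second deposited table gives, per the file headers, the authors' log2 fold changes and log2 CPM with p-values and false discovery rates for DCA against untreated cells. Only its gene symbols were used here (15067), with GENCODE M21 symbols for 37502 other genes. The samples' group labels were read from their GEO titles and strain fields. No deposited column of values was left unmapped.

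Counts of all 12 libraries were fitted with the edgeR quasi-likelihood test (edgeR 4.0.16, R 4.3.3), with 4 group means, TMM factors, filterByExpr and Benjamini-Hochberg adjustment over 15688 genes at a threshold of 0.05. Every adjusted p in the text comes from this edgeR fit unless another is named. Standard errors are the size of the log2 fold change over the root of its F statistic. CPM of V segments and marker lists use library totals. Alternatives used RLE factors, cyclic loess with limma 3.58.1, limma-voom, DESeq2 1.42.0, other filters, fewer libraries, a replicate block and, added after seeing the data, limma on log2 CPM, loess removal (span 0.3) of the trend with transcript GC content and length, and a fit without 2 libraries. The scripts' tests were tested on simulated data. There only a small share of genes was changed, equally in both directions and without a trend with level, GC content or length. That trial therefore does not cover a contrast with so many changes and such trends. Replicate libraries differed by a chi-square of 15.8 to 29.8 per degree of freedom, so none is a copy of another.

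Named genes are 68 genes of interest where they carry a result, the 15 largest higher and 15 largest lower fold changes whose mean log2 CPM reached 4 and no overlap between experiments (predicted genes and receptor segments left out), up to 3 members per direction of each of 41 lists by adjusted p beside members named for their role, and V segments with at least 10 CPM. The members and lists were chosen with earlier results of these data known. List medians with genes absent from 1 experiment set at their bound (3 counts per group) were the same to the second decimal. No list held more than 2 such genes, so the medians could hardly move. Symbols, sequences, GC content and length come from GRCm38 references, matched by gene ID or symbol, and no coordinate was taken from the deposited files. A few results are not reported here.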

Additional observations from a re-analysis of the deposited data

Results flagged for a closer look

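The difference between experiment 2 and experiment 1 was not the same in untreated and DCA-expanded cells for 8 of the named genes, by the interaction term of the edgeR fit over 12 libraries. It was called for 0.331% of all genes tested. The untreated log2 fold change minus the DCA-expanded one was -1.11 for Cd44 (adjusted p = 0.011), from -0.82 in untreated and 0.30 in DCA-expanded cells. It was -0.88 for Myc (adjusted p = 0.011), from 1.08 in untreated and 1.96 in DCA-expanded cells. For the protease inhibitor gene the value was -1.96 for Serpine2 (adjusted p = 0.022), from -1.03 in untreated and 0.93 in DCA-expanded cells. The lymphotoxin gene had -1.08 for Lta (adjusted p = 0.0012), from 0.66 in untreated and 1.74 in DCA-expanded cells. The p53 target list held -1.08 for Bax (adjusted p = 0.0079), from -1.32 in untreated and -0.25 in DCA-expanded cells. Another value was -0.96 for Snhg15 (adjusted p = 0.011), from -1.69 in untreated and -0.73 in DCA-expanded cells, a small nucleolar RNA host. The mitochondrial thioredoxin gene had -0.66 for Txn2 (adjusted p = 0.035), from -1.12 in untreated and -0.45 in DCA-expanded cells. The only positive value was 0.93 for St6gal1 (adjusted p = 0.026), from 3.27 in untreated and 2.34 in DCA-expanded cells. Both arms come from the same mice, the fit had no term for the mouse, and no cause was tested.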

How the results depend on the processing

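Each experiment was run once, so strain, peptide, dose and batch cannot be told apart, and the spread is between mice of 1 experiment. At the depth of these libraries, genes under the filter on low counts could not be tested, among them 10 of the 18 genes of the type 2 and type 17 list. Sex chromosome transcripts differed within experiment 1. Without the pair of libraries rich in Xist, 1 library of experiment 1 remains, assumed to vary like the other groups, and these genes lost their calls, with log2 fold changes before and without the pair: Bpgm (-0.76, -0.60), Ccl5 (-1.93, -1.45), Cd226 (0.66, 0.21), Cxcr3 (0.71, 0.72), Fosl2 (-0.63, -0.29), Mki67 (-0.34, -0.29), Nr4a1 (1.87, 1.83), Nr4a3 (-2.70, -2.33), Pdcd1 (0.78, 1.01) and Plk2 (2.97, 2.34).

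Beside the 8131 of 15688 genes called, the alternatives called 8139 (RLE size factors), 8135 (cyclic loess), 8382 (limma-voom) and 8365 of 15663 (DESeq2). Other filters and fewer libraries called 8230 of 38665 (no filter), 6771 of 9803 (5 CPM in 3 libraries) and 7724 of 14311 (6 untreated libraries only). With mitochondrial genes left out of the library sizes, 8110 of 15662 were called. A test against a log2 fold change of 1 called fewer by its construction, 2424 in all, 1359 higher and 1065 lower. Leaving out 1 untreated library called 7435 to 7857 of 16279 to 16410 genes tested, with 3889 to 4164 higher and 3303 to 3771 lower. Among alternatives chosen after seeing the data, limma on log2 CPM called 8434 and the removal of the GC and length trend 7718 of 15148. The fit without both libraries rich in Xist left 1 library in experiment 1, so its count of calls is not given. Of the 229 genes named, 209 were called and 137 of these in every setting that tested them, the minimum fold included. Many were named because they were called, beside 51.8% of all genes. These counts therefore follow in large part from the choice and do not measure how robust the results are.

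The replicate numbers name different mice in each experiment, and same-numbered libraries did not deviate together (correlations -0.0229, -0.0037 and 0.0276, and not every library correlated best with its own number). With the mouse number as a replicate block, 7458 genes were called, 3788 higher and 3670 lower, against 7724 without it, and Cxcr3 lost its call (adjusted p = 0.067).

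With cyclic loess, the list medians that moved past the spread of replicates were T cell receptor 0.88, effector and cytotoxic -0.0032, cytokines -0.14, cytokine signalling 1.15, MHC class I 1.14, glycolysis 2.33, citric acid cycle 0.29, respiratory chain -0.40, mitochondrially encoded 2.04, pyruvate dehydrogenase 0.0477, proliferation 0.55, histones 2.26, stress response 0.33, p53 targets 0.27, hypoxia-induced 0.98, cholesterol 0.75, fatty acids 0.61, oxidative defence 0.10, chaperones 0.40 and long nuclear RNAs -0.78. With cyclic loess, counts of higher members that moved by over 1.5 times were respiratory chain 10, oxidative defence 10 and chaperones 11. With cyclic loess, counts of lower members that did so were T cell receptor 2, cytokine receptors 2, cytokine signalling 1, MHC class I 0, glycolysis 1, citric acid cycle 5, proliferation 7, histones 1, stress response 6, p53 targets 1, cholesterol 3, oxidative defence 6 and chaperones 2. After trend removal, the list medians that moved past the spread of replicates were cytokine receptors 0.71, cytokines 0.34, cytokine signalling 0.56, interferon-inducible GTPases 0.72, MHC class I 0.39, immediate early 0.43, glycolysis 1.03, respiratory chain -0.85, mitochondrially encoded 1.72, pyruvate dehydrogenase 0.14, proliferation -0.0033, histones 2.46, ribosome biogenesis -0.65, stress response -0.20, cholesterol 0.18, fatty acids 0.33, oxidative defence -0.37, long nuclear RNAs -0.74 and genes around Thy1 -0.27. After trend removal, counts of higher members that moved by over 1.5 times were type 2 and 17 3, interferon-inducible GTPases 11, ribosome biogenesis 1 and oxidative defence 3. After trend removal, counts of lower members that did so were cytokine signalling 1, MHC class I 6, immediate early 9, histones 2 and hypoxia-induced 2.

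Some named genes that were not called in the main fit were called in an alternative, sign changes aside. There were 8 with cyclic loess, 11 after trend removal and 6 with no filter. Statements above that a gene was not called thus refer to the main fit. Log2 fold changes of named genes that took the other sign were as follows. With cyclic loess, Cd3d 0.53, Cd3g 0.47, Entpd1 0.0573, Hcst 0.10, Hk2 0.0042, Ifng -0.83, Mki67 0.21, Nkg7 0.12, Ptpn2 0.10, Stat4 0.17 and Trbc1 0.16. After trend removal, Bop1 -0.10, Mybbp1a -0.0244, Prf1 -0.23, Ptpn2 0.0494 and Stat4 0.25. Without both libraries rich in Xist, Cd69 -0.13, Ddx3y -0.15, Egr2 -0.43, Egr3 0.85, Entpd1 0.0544, Ifng -0.0853 and Trac -0.0156. With limma-voom, Ifng -0.14. With limma on log2 CPM, Ifng -0.14. With the replicate block, Ifng -0.12. Leaving out 1 library, only genes that were not called changed sign, with ranges over the 6 fits of Cd69 -0.0539 to 0.19, Entpd1 -0.21 to 0.0145, Gzmb -0.0076 to 0.14, Ifng -0.14 to 0.55 and Stat4 -0.21 to 0.0543. The cause was not tested for any of these.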
